A study of Mus musculus with 4 samples.

Results

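The 10 genes described here make, break down or sense prostaglandins: Ptgs1, Ptgs2, Ptges, Ptges2, Ptges3, Ptgds, Ptgis, Hpgd, Ptger3 and Ptger4. They were taken by name, through the RefSeq accession attached to each array probe, and all 10 were found among 23462 named genes, on 15 probes. Total RNA of whole brain from Nav1.8CreROSA26DTA mice and wild-type mice was measured on 4 one-colour Agilent arrays. There was 1 array for each of 4 groups, which were Nav1.8CreROSA26DTA with LPS, wild-type with LPS, Nav1.8CreROSA26DTA with PBS and wild-type with PBS. LPS, a cell wall lipid of Gram-negative bacteria, was injected intraperitoneally at 20 mg/kg body weight and brains were collected 12 hours later, and PBS, phosphate-buffered saline, was the control injection. In Nav1.8CreROSA26DTA mice the Nav1.8 (Scn10a) locus drives Cre, and Cre turns on diphtheria toxin A from ROSA26, so that sensory neurons of the Nav1.8 lineage, most of which lie in ganglia outside the brain, are killed. The labels give no age, sex or strain, and they do not say how many mice an array stands for. The design asks how the brain responds to this dose of LPS and whether loss of these sensory neurons alters that response.

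Prostaglandins are short-lived lipids made from arachidonate, which phospholipases release from membranes. A cyclooxygenase, the product of Ptgs1 or Ptgs2, turns arachidonate into prostaglandin H, and a terminal synthase then fixes the product: prostaglandin E (Ptges, Ptges2, Ptges3), prostaglandin D (Ptgds) or prostacyclin (Ptgis). Hpgd starts their breakdown, and prostaglandin E acts on receptors that include the products of Ptger3 and Ptger4. In brain the pathway is best known for fever, in which vessel cells make prostaglandin E during systemic inflammation and hypothalamic neurons with the Ptger3 receptor respond to it.

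Signals are spot brightness after background subtraction, scaled so that all arrays share one 75th percentile, and are given in intensity units. Levels of different probes cannot be set against each other. Of the spots, 66.5% to 69.5% were well above background on each array and 0 were saturated, and all 10 genes were well above background on all 4 arrays, so each passed the filter. All 5 markers of neurons, all 5 of astrocytes, all 5 of oligodendrocytes and all 5 of microglia were well above background on every array, as the label brain requires. The arrays differed in blood genes, with both extremes on the PBS arrays: the summed signal of 5 of them was 107018 in Nav1.8CreROSA26DTA LPS, 67136 in wild-type LPS, 206771 in Nav1.8CreROSA26DTA PBS and 28150 in wild-type PBS. S100a8, a neutrophil gene, also set wild-type PBS apart, with 1017 in Nav1.8CreROSA26DTA LPS, 645 in wild-type LPS, 427 in Nav1.8CreROSA26DTA PBS and 21.9 in wild-type PBS. Fewer cells of a type and less RNA per cell cannot be told apart in whole brain.

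Promoter sequences are shown for the 3 genes with a called LPS difference at any probe, Ptgs2, Ptges and Hpgd, so that the regulatory stretch can be read beside the response. Each runs 5′ to 3′ on the gene's strand, from 250 bases before the RefSeq start to 50 bases from it, in GRCm38.p6, and 9 of the 10 genes had such an entry. Capitals mark matches, on either strand, to TATAAA (a motif found before many start sites), TGACG (the core of a cyclic AMP response element), CACGTG (E-box), TTNNGNAA (a C/EBP-like site) and TGANTCA (AP-1).
Ptgs2 promoter, chr1:150099781-150100080, plus strand: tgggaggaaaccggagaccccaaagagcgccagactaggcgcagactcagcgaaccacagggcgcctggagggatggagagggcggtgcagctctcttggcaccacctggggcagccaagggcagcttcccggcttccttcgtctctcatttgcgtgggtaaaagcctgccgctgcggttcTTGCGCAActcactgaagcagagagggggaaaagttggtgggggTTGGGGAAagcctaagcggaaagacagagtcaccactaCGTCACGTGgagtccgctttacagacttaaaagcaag
Ptges promoter, chr2:30903248-30903547, minus strand: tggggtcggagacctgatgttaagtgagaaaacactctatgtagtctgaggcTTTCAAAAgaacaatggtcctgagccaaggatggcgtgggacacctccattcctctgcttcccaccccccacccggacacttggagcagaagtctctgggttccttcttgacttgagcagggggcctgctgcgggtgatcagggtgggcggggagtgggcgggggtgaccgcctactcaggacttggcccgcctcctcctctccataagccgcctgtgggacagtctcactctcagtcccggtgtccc
Hpgd promoter, chr8:56294302-56294601, plus strand: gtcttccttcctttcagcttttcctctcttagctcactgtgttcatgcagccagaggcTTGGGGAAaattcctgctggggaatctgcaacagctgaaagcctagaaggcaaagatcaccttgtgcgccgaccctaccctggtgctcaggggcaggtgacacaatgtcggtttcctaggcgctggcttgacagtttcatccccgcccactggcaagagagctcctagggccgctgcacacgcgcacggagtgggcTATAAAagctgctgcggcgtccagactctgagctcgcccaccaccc
The Ptgs2 window held a TGACG match that begins 14 bases after the annotated start, counted from 1, and a CACGTG match that begins at 17 and shares letters with it. Ptgs2 also held 2 matches to TTNNGNAA and 1 to GGGCGG (GC box). The Ptges window held 1 match to TTNNGNAA and 2 to GGGCGG, and the Hpgd window held TATAAA beginning 5 bases after the annotated start, not before it, 1 match to TTNNGNAA and 1 to GGGCGG. Among all 32851 promoters in the table, 20.8% held TGACG, 7.15% CACGTG, 40.7% TTNNGNAA, 13.6% TATAAA, 7.81% TGANTCA and 35.7% GGGCGG. The NF-kB consensus, which 8.46% of promoters held, had no match in these 3 windows. Of the 9 windows of these genes, 5 held TTNNGNAA, 6 held GGGCGG and 2, those of Ptges3 and Ptgds, held the NF-kB consensus. Sequence outside the windows was not searched. A match describes letters only and names no bound factor.

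LPS against PBS was estimated as the average of both genotypes with limma, a linear model fitted over 17132 genes, and a gene was called at a Benjamini-Hochberg adjusted p under 0.05. Each side of the average holds 2 arrays, and errors after ± are limma's standard errors. One of the 10 genes was called higher and 1 lower, against 5.84% of all genes tested called higher and 4.87% called lower. The 10 genes had a median LPS difference of −0.12 on the log2 scale, and all genes tested had −0.03.

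The inducible cyclooxygenase rose and the other one did not pass. Ptgs2 had a signal of 510 in Nav1.8CreROSA26DTA LPS and 479 in wild-type LPS, against 185 in Nav1.8CreROSA26DTA PBS and 187 in wild-type PBS. Both LPS arrays lay above both PBS arrays, and within each injection the genotypes nearly coincided. The LPS difference was 1.41 ± 0.13 on the log2 scale (adjusted p = 7.08e-05), or 2.66-fold. Ptgs1, the cyclooxygenase that most tissues make without stimulation, had 745 in Nav1.8CreROSA26DTA LPS and 792 in wild-type LPS, against 693 in Nav1.8CreROSA26DTA PBS and 771 in wild-type PBS. The Ptgs1 groups overlapped, with an LPS difference of 0.07 ± 0.11 (adjusted p = 0.75). The call of Ptgs2 remained with any 1 array left out, at 1.36 to 1.46 (adjusted p = 0.00552 to 0.0131). Of 5 neutrophil and monocyte genes 4 rose with LPS, and Mpo was not called (−0.79 ± 0.42, adjusted p = 0.297). The summed signal of the 5 was 17175 and 18244 with LPS, against 6040 and 4195 with PBS, in Nav1.8CreROSA26DTA and wild-type. Ly6c2, the brightest, had 12232 and 14678 with LPS, against 4100 and 4057 with PBS, in the same order. With PBS, Nav1.8CreROSA26DTA minus wild-type was 4.29 for S100a8, 4.39 for S100a9 and 1.97 for Mpo. It was −0.05 for Il1r2, 0.02 for Ly6c2 and −0.02 for Ptgs2. Of 5 brain endothelium markers 3 fell, Flt1, Slco1c1 and Tek. Cldn5 (0.10 ± 0.12, adjusted p = 0.691) and Pecam1 (0.28 ± 0.17, adjusted p = 0.38) lay above 0 and were not called. The summed signals of the 5 were 5055 in Nav1.8CreROSA26DTA LPS and 5774 in wild-type LPS, against 6991 in Nav1.8CreROSA26DTA PBS and 6678 in wild-type PBS. All 10 of these markers were well above background on all 4 arrays, and their part in the Ptgs2 result was not tested.

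**Figure D1:**
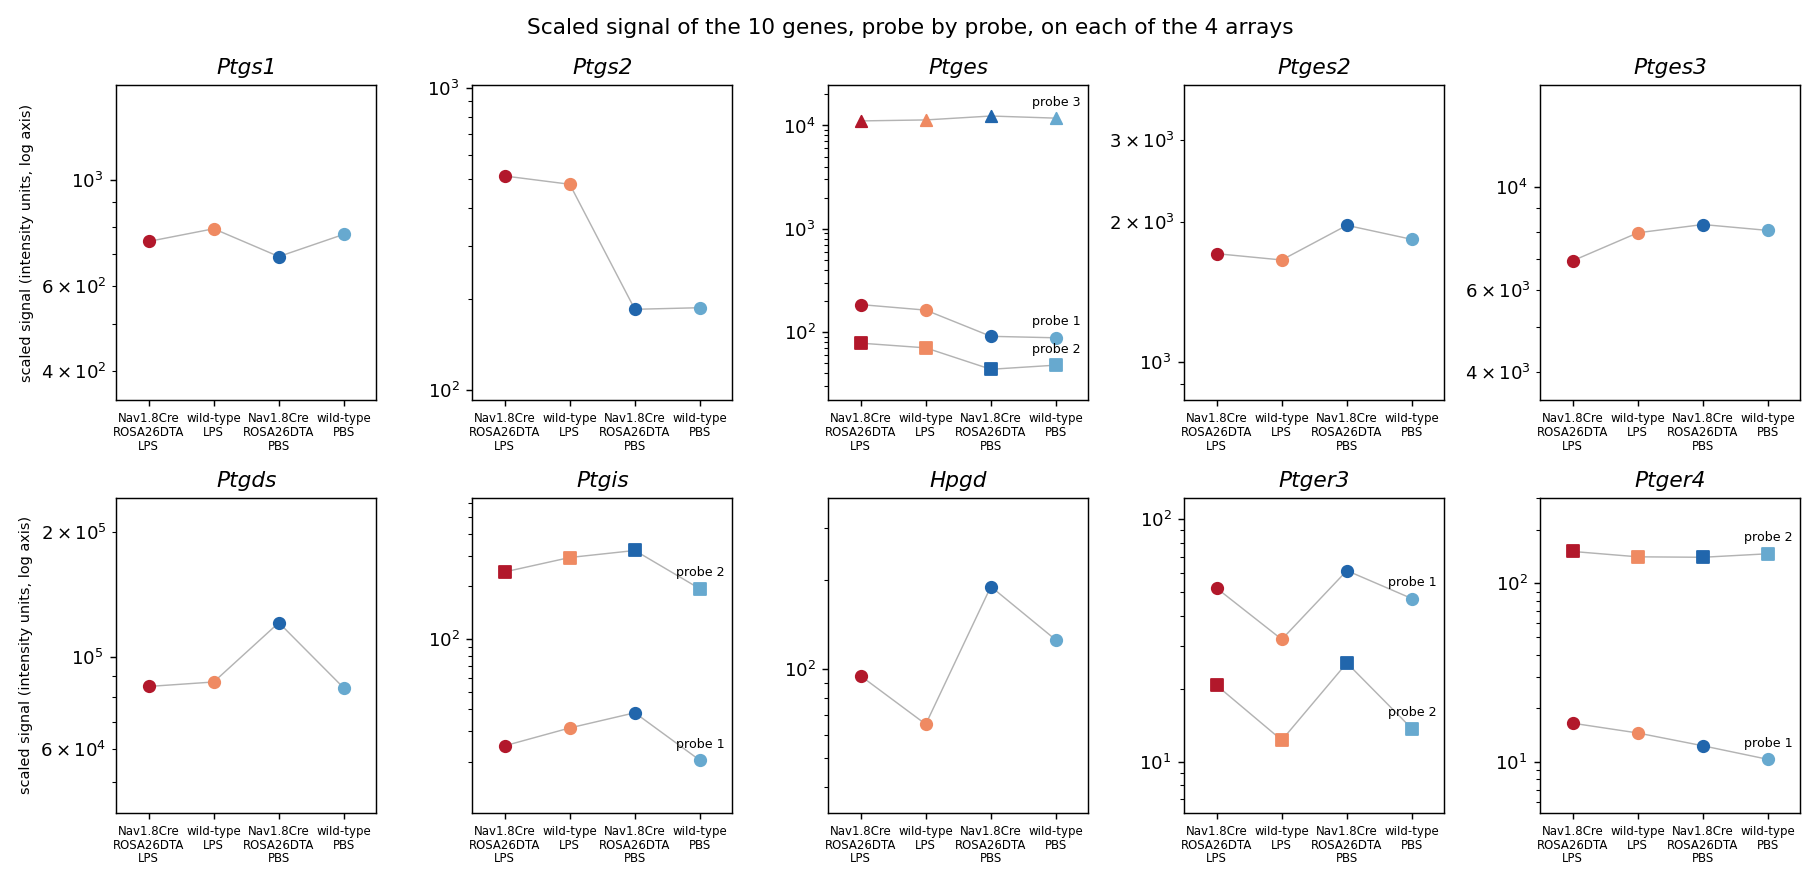
Scaled signal (intensity units, log axis) of each probe of the 10 genes on the Nav1.8CreROSA26DTA LPS, wild-type LPS, Nav1.8CreROSA26DTA PBS and wild-type PBS arrays, 1 point per array, with circles, squares and triangles for probes 1, 2 and 3 of a gene. Ptgs2 and Ptges probes 1 and 2 lie higher on both LPS arrays than on both PBS arrays, Hpgd lies lower, and Ptges probe 3 is nearly level.

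Ptges encodes the microsomal synthase that works with the inducible cyclooxygenase, and its 3 probes disagreed. Probe 1 had a signal of 184 in Nav1.8CreROSA26DTA LPS and 163 in wild-type LPS, against 90.8 in Nav1.8CreROSA26DTA PBS and 87.9 in wild-type PBS. Probe 2 had 78.0 in Nav1.8CreROSA26DTA LPS and 70.2 in wild-type LPS, against 43.6 in Nav1.8CreROSA26DTA PBS and 47.8 in wild-type PBS. Probe 3, the brightest and so the one that stands for the gene in the model of genes, had 11066 in Nav1.8CreROSA26DTA LPS and 11313 in wild-type LPS, against 12343 in Nav1.8CreROSA26DTA PBS and 11770 in wild-type PBS. At probes 1 and 2 both LPS arrays lay above both PBS arrays, and at probe 3 both lay below. In a limma fit with 1 row per probe, over 37797 probes, probe 1 rose by 0.96 ± 0.18 (adjusted p = 0.012), probe 2 differed by 0.70 ± 0.23 (adjusted p = 0.13), and probe 3 by −0.11 ± 0.09 (adjusted p = 0.6). In that fit 3.22% of all probes were called higher and 2.22% lower. With the mean of the 3 probes in the model of genes, Ptges was called higher, by 0.52 ± 0.11 (adjusted p = 0.0319). All 3 probes carry the same RefSeq accession, and the files hold no probe sequence with which to place them on the transcript, so which of them follows the synthase mRNA was not tested. The call of probe 1 ended without the wild-type LPS array (1.04, adjusted p = 0.115), without the Nav1.8CreROSA26DTA LPS array (0.87, adjusted p = 0.27) and without limma's intensity trend (adjusted p = 0.143).

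**Figure D2:**
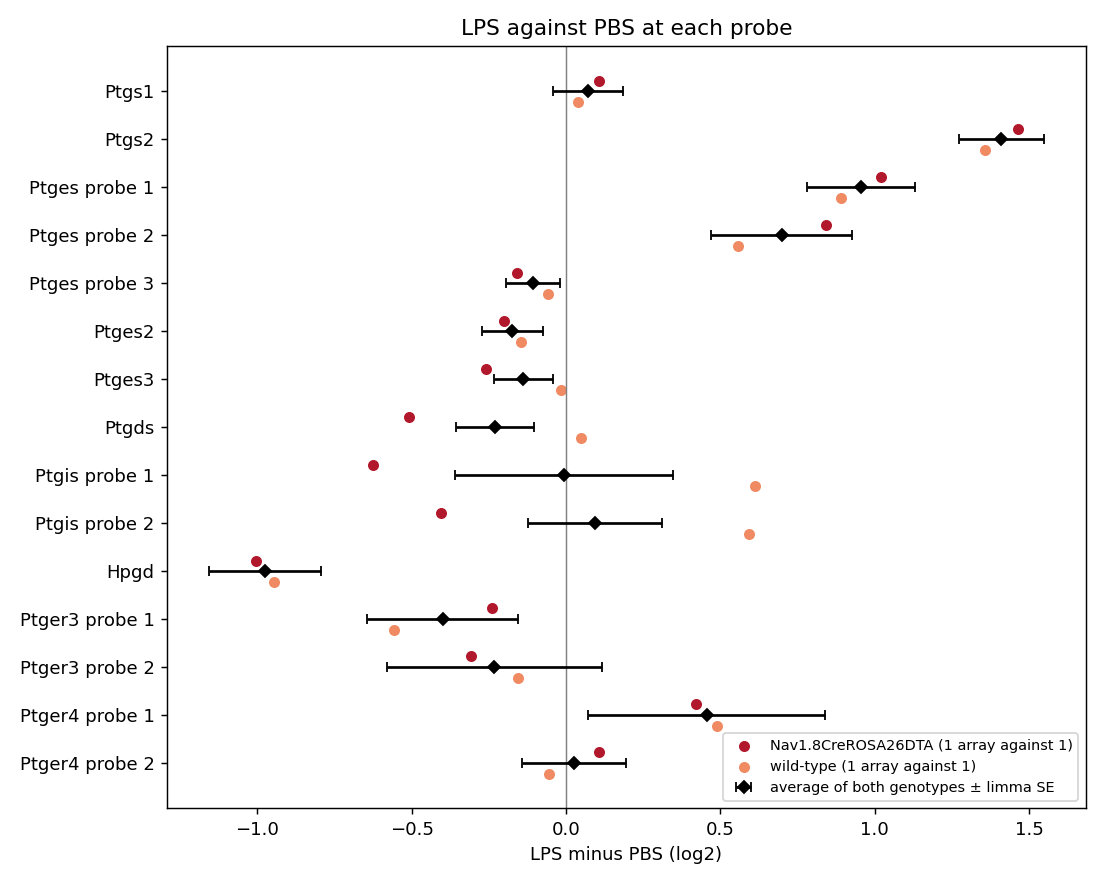
LPS minus PBS (log2) at each of the 15 probes, with diamonds for the average of both genotypes, bars for limma's standard error in the fit of all probes, and dots for the single comparison within Nav1.8CreROSA26DTA and within wild-type. Ptgs2 stands at 1.41, Ptges probe 1 at 0.96 and Hpgd at −0.98, each with both genotypes close to the average, whereas the dots of Ptgis lie on opposite sides of 0.

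No other synthase gene passed the test. Ptges2, which encodes another membrane-bound synthase of prostaglandin E, had 1710 in Nav1.8CreROSA26DTA LPS and 1658 in wild-type LPS, against 1967 in Nav1.8CreROSA26DTA PBS and 1835 in wild-type PBS. Both Ptges2 values with LPS lay below both with PBS, by −0.17 ± 0.10 (adjusted p = 0.32). Ptges3, the cytosolic synthase that is also the Hsp90 co-chaperone p23, had 6936 in Nav1.8CreROSA26DTA LPS and 7970 in wild-type LPS, against 8305 in Nav1.8CreROSA26DTA PBS and 8065 in wild-type PBS, a difference of −0.14 ± 0.10 (adjusted p = 0.449). Ptgds encodes the lipocalin-type synthase of prostaglandin D, an abundant product of oligodendrocytes, meninges and choroid plexus. It had 85030 in Nav1.8CreROSA26DTA LPS and 87166 in wild-type LPS, against 121115 in Nav1.8CreROSA26DTA PBS and 84244 in wild-type PBS. Here the Nav1.8CreROSA26DTA PBS array alone was high and the other 3 lay close together. Ptgds was printed as 10 spots, whose SD within an array was 0.048 to 0.082 on the log2 scale, so the high value was shared by its spots. All spots of an array share its scaling, however. Before scaling, Ptgds had 100328 in Nav1.8CreROSA26DTA LPS and 89517 in wild-type LPS, against 101060 in Nav1.8CreROSA26DTA PBS and 83596 in wild-type PBS. The 75th percentiles used for scaling were 720, 626, 508 and 605 in that order. The averaged difference was −0.23 ± 0.13 (adjusted p = 0.346), or 0.031 without the Nav1.8CreROSA26DTA PBS array. It was −0.09 with cyclic loess and −0.15 with quantile normalization. Ptgis, the prostacyclin synthase of vessels and fibroblasts, had 2 probes that agreed in order. Probe 2 had 242 in Nav1.8CreROSA26DTA LPS and 293 in wild-type LPS, against 321 in Nav1.8CreROSA26DTA PBS and 194 in wild-type PBS. Probe 1 had 24.7 in Nav1.8CreROSA26DTA LPS and 31.2 in wild-type LPS, against 38.1 in Nav1.8CreROSA26DTA PBS and 20.4 in wild-type PBS. At both probes the highest value and the lowest were those of the PBS arrays, and the averaged difference of Ptgis was 0.09 ± 0.21 (adjusted p = 0.839).

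The breakdown gene fell. Hpgd, the 15-hydroxyprostaglandin dehydrogenase that inactivates prostaglandin E, had 94.9 in Nav1.8CreROSA26DTA LPS and 65.1 in wild-type LPS, against 190 in Nav1.8CreROSA26DTA PBS and 126 in wild-type PBS. Both LPS arrays lay below both PBS arrays, and the Nav1.8CreROSA26DTA array was the higher one with either injection. The LPS difference was −0.98 ± 0.17 (adjusted p = 0.00546), a level 0.508 times that with PBS. Hpgd was measured by 1 probe. Its call ended with any 1 array left out, in a model that then has no term for genotype: −1.28 without wild-type PBS (adjusted p = 0.0706), −0.68 without Nav1.8CreROSA26DTA PBS (0.323), −0.70 without wild-type LPS (0.323) and −1.25 without Nav1.8CreROSA26DTA LPS (0.109). It also ended with all 4 arrays once the term for genotype was dropped (adjusted p = 0.113). Microglial markers moved in the same direction: 3 of 5, P2ry12, Cx3cr1 and Tmem119, fell, and the summed signal of the 5 was 18011 in Nav1.8CreROSA26DTA LPS and 17770 in wild-type LPS, against 24725 in Nav1.8CreROSA26DTA PBS and 20280 in wild-type PBS. Their part in the Hpgd result was not tested.

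Neither receptor gene passed. Ptger3, the receptor through which prostaglandin E produces fever, had 52.0 in Nav1.8CreROSA26DTA LPS and 31.9 in wild-type LPS at probe 1, against 61.4 in Nav1.8CreROSA26DTA PBS and 47.1 in wild-type PBS. Its groups overlapped, with an averaged difference of −0.40 ± 0.24 (adjusted p = 0.369). Probe 2 of Ptger3 was well above background on 3 of 4 arrays, the exception being wild-type LPS, and differed by −0.23 ± 0.35 (adjusted p = 0.8). Ptger4, a receptor coupled to cyclic AMP that is also found on immune cells, had 151 in Nav1.8CreROSA26DTA LPS and 141 in wild-type LPS at probe 2, against 140 in Nav1.8CreROSA26DTA PBS and 147 in wild-type PBS, with a difference of 0.03 ± 0.16 (adjusted p = 0.95). Its dimmer probe 1 had 16.5 in Nav1.8CreROSA26DTA LPS and 14.5 in wild-type LPS, against 12.3 in Nav1.8CreROSA26DTA PBS and 10.4 in wild-type PBS. There both LPS arrays lay above both PBS arrays, by 0.45 ± 0.39 (adjusted p = 0.615). The averaged value of Ptger4 at probe 2 changed sign with median scaling (−0.029), quantile normalization (−0.014) and normexp (−0.11).

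Within a genotype 1 array was set against 1, which allows no test, and genes at least 2-fold apart were counted. In Nav1.8CreROSA26DTA, 1 of the 10 genes was at least 2-fold higher with LPS (Ptgs2, 1.46 on the log2 scale) and 1 lower (Hpgd, −1.01), where 3.10% and 1.43% of measured genes were. In wild-type, 1 was at least 2-fold higher (Ptgs2, 1.36) and 0 lower, with Hpgd just inside the limit at −0.95, where 3.41% and 0.618% of measured genes were. Ptges probe 1 was 1.02 higher in Nav1.8CreROSA26DTA and 0.89 higher in wild-type. At probe 2 the values were 0.84 in Nav1.8CreROSA26DTA and 0.56 in wild-type.

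The genotypes were compared in the same model, averaged over both injections. None of the 10 genes was called, where 0.695% of all genes tested were, and 2 had an unadjusted limma p under 0.05, where 10.3% of all genes tested did. These were Hpgd, with a difference (Nav1.8CreROSA26DTA minus wild-type) of 0.57 ± 0.17 (adjusted p = 0.234), and Ptger3, with a difference of 0.54 ± 0.24 (adjusted p = 0.485). For Hpgd the difference was 0.54 with LPS and 0.60 with PBS, and for Ptger3 it was 0.70 with LPS and 0.38 with PBS. With an array left out, in a model without a term for the injection, the averaged difference ran from 0.07 (without Nav1.8CreROSA26DTA PBS) to 1.08 (without Nav1.8CreROSA26DTA LPS) for Hpgd. For Ptger3 it was lowest, at 0.26, when the wild-type LPS array was dropped, and highest, at 0.82, when that of wild-type PBS was. The genotypes then differ in their mix of injections, so part of the LPS difference enters these values. They do not show how stable the genotype difference is. With normexp background correction and all arrays, the averaged difference was 0.37 for Hpgd and 0.25 for Ptger3. Probe 2 of Ptger3 ran the same way, at 0.75 with LPS and 0.90 with PBS, although its wild-type LPS value was not well above background. Cyclooxygenase genes differed little: Ptgs2 by 0.04 ± 0.13 (adjusted p = 0.966) and Ptgs1 by −0.12 ± 0.11 (adjusted p = 0.791). The remaining averaged differences ran from −0.08 for Ptges3 to 0.24 for Ptgds.

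With 1 array against 1, 0 of the 10 genes differed 2-fold between genotypes with LPS or with PBS, where 1.20% and 1.62% of measured genes did. With PBS the widest gaps were those of Ptgis, 0.73 higher in Nav1.8CreROSA26DTA, Hpgd at 0.60 and Ptgds at 0.52. With LPS, Ptgis was −0.27 and Ptgds −0.04. Markers of tissues known to make one or the other synthase are given beside these values. The summed signal of 5 meningeal fibroblast and pericyte genes was 4765 in Nav1.8CreROSA26DTA PBS and 2279 in wild-type PBS, and 8099 in Nav1.8CreROSA26DTA LPS and 6605 in wild-type LPS, with all 5 well above background on all arrays. Dcn was the brightest of these 5 on every array. Its signal was 2533 in Nav1.8CreROSA26DTA PBS and 1013 in wild-type PBS, and 6527 in Nav1.8CreROSA26DTA LPS and 4877 in wild-type LPS. In Nav1.8CreROSA26DTA and wild-type the LPS differences were −0.71 and 0.52 for Lum, −0.70 and 0.50 for Slc6a13 and −0.25 and 1.21 for Col1a1. They were −0.37 and 0.03 for Pdgfrb and 1.37 and 2.27 for Dcn. For 5 oligodendrocyte genes the summed signal was 81599 in Nav1.8CreROSA26DTA PBS and 56115 in wild-type PBS, and 90372 in Nav1.8CreROSA26DTA LPS and 40740 in wild-type LPS. For 5 choroid plexus genes, of which Ttr, Kcne2 and Otx2 were not well above background on every array, it was 170 in Nav1.8CreROSA26DTA PBS and 85.9 in wild-type PBS, and 198 in Nav1.8CreROSA26DTA LPS and 145 in wild-type LPS. For the 5 endothelium markers it was 6991 in Nav1.8CreROSA26DTA PBS and 6678 in wild-type PBS, the closest pair of these lists with PBS. Their part in the Ptgis and Ptgds values was not tested.

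**Figure D3:**
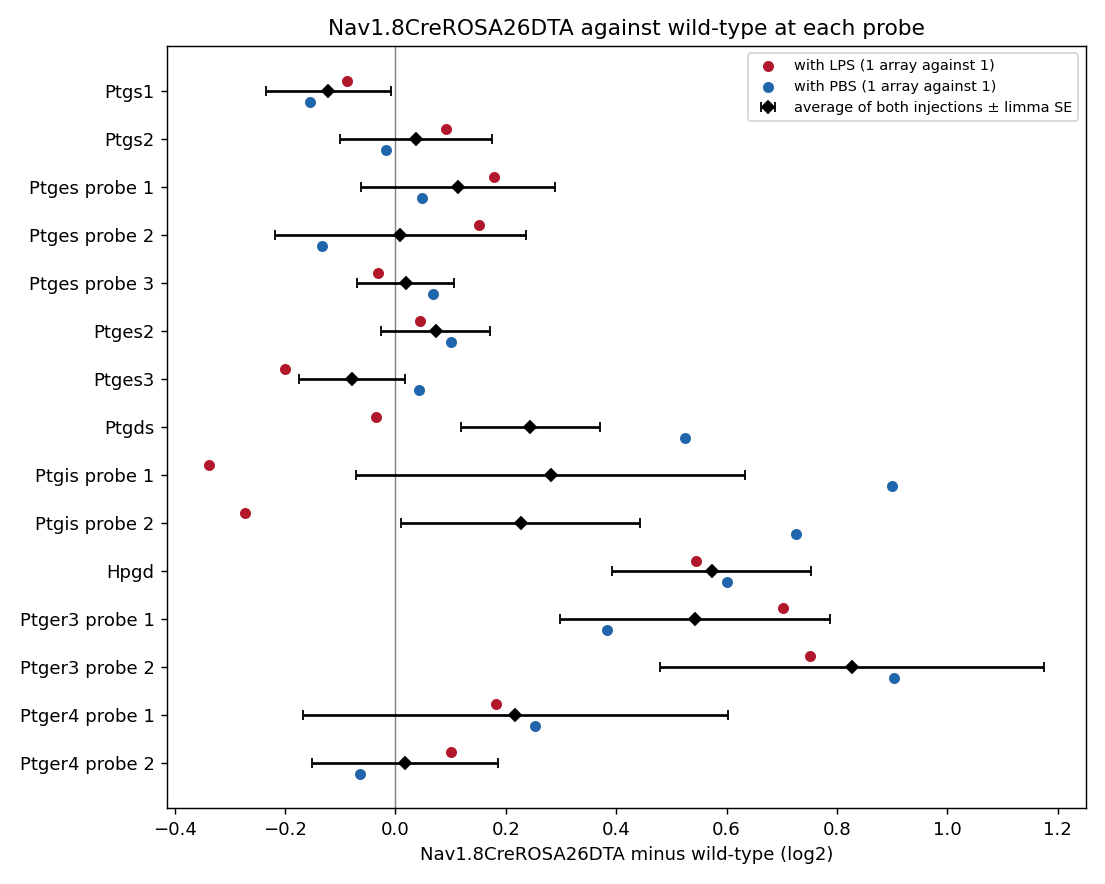
Nav1.8CreROSA26DTA minus wild-type (log2) at each of the 15 probes, with diamonds for the average of both injections, bars for limma's standard error in the fit of all probes, and dots for the single comparison with LPS and with PBS. Hpgd and both probes of Ptger3 lie above 0 with either injection, and Ptgis and Ptgds lie well above 0 with PBS only.

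The LPS responses of the genotypes, Nav1.8CreROSA26DTA minus wild-type, differed by less than 2-fold for all 10 genes, where 2.51% of genes measured on all 4 arrays differed by at least that much. No test of this difference is possible with 1 array per group. It was 0.11 for Ptgs2 and −0.06 for Hpgd, while the median size over all genes was 0.18. At Ptges it was 0.13 at probe 1 and 0.28 at probe 2. Ptgis had the widest value, −0.999 at probe 2 and −1.24 at probe 1, followed by Ptgds at −0.56.

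The pathway around these genes was described with a list of 47 further genes, of which 39 were tested, with 8 called higher, 5 lower and 26 not called, which is 20.5% higher and 12.8% lower, where 5.84% and 4.87% of all genes tested were. The list was chosen with earlier results of these data known, so the shares are a description. Their median LPS difference was 0.03. For genotype 0 of them were called, and 2 had an unadjusted limma p under 0.05 (5.13%, against 10.3% of all genes tested). Phospholipase genes, which supply arachidonate, went both ways. Pla2g3, a secreted phospholipase, had 620 in Nav1.8CreROSA26DTA LPS and 628 in wild-type LPS, against 269 in Nav1.8CreROSA26DTA PBS and 223 in wild-type PBS, and rose by 1.35 ± 0.13 (adjusted p = 9.67e-05). Pla2g4a, the cytosolic phospholipase that feeds cyclooxygenases in many cells, rose by 0.69 ± 0.18 (adjusted p = 0.0336). Pla2g5, another secreted phospholipase, fell by 0.71 ± 0.17 (adjusted p = 0.0261). The other 7 tested genes of arachidonate release did not pass.

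Of 5 other prostanoid synthase genes 2 fell and 0 rose. Hpgds, the haematopoietic synthase of prostaglandin D, had 10.1 in Nav1.8CreROSA26DTA LPS and 12.9 in wild-type LPS, against 33.4 in Nav1.8CreROSA26DTA PBS and 36.7 in wild-type PBS. It was well above background on 3 of 4 arrays and fell by 1.62 ± 0.34 (adjusted p = 0.0124). With normexp the Hpgds difference was −0.50 and not called (adjusted p = 0.0993). Tbxas1, the thromboxane synthase gene, fell by 0.90 ± 0.19 (adjusted p = 0.0137), with 72.7 in Nav1.8CreROSA26DTA LPS and 92.3 in wild-type LPS, against 114 in Nav1.8CreROSA26DTA PBS and 204 in wild-type PBS. Both are known from macrophages and microglia, whose markers P2ry12, Cx3cr1 and Tmem119 fell on the same arrays, and their part was not tested. Of the transport genes, Abcc4, which exports prostanoids, fell by 0.86 ± 0.14 (adjusted p = 0.00281). Slco2a1, the carrier that takes prostaglandins up for breakdown, had 85.5 in Nav1.8CreROSA26DTA LPS and 142 in wild-type LPS, against 84.2 in Nav1.8CreROSA26DTA PBS and 50.5 in wild-type PBS (0.76 ± 0.30, adjusted p = 0.158). Slco2a1 itself passed the filter on dim probes. In a fit without that filter its value was unchanged, its standard error was 0.24, and it was called (adjusted p = 0.0167). The Slco2a1 difference was 0.02 in Nav1.8CreROSA26DTA and 1.49 in wild-type. Neither other breakdown gene passed, with Ptgr1, a prostaglandin reductase gene, at 0.84 ± 0.29 (adjusted p = 0.105). None of 5 tested receptor genes passed, and Ptger2 and Ptgir were not well above background on any array.

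The leukotriene arm, which competes for the same arachidonate, held 2 genes that rose and 1 that fell among 7 tested. Alox5, the enzyme gene of the first step, had 288 in Nav1.8CreROSA26DTA LPS and 240 in wild-type LPS, against 77.8 in Nav1.8CreROSA26DTA PBS and 68.8 in wild-type PBS. It rose by 1.84 ± 0.16 (adjusted p = 4.68e-05), and its activating protein gene Alox5ap by 0.78 ± 0.12 (adjusted p = 0.00187). Ltc4s, the leukotriene C synthase gene, fell by 1.37 ± 0.19 (adjusted p = 0.00106), with 182 in Nav1.8CreROSA26DTA LPS and 303 in wild-type LPS, against 641 in Nav1.8CreROSA26DTA PBS and 576 in wild-type PBS. On the same arrays 4 of 5 neutrophil and monocyte markers rose, with a median LPS difference of 3.05, and 3 of 5 microglial markers fell, with a median over the 5 of −0.64, and their part in the leukotriene genes was not tested. Among 8 tested genes of cytokine signals that induce the cyclooxygenase and the microsomal synthase, 4 rose and 0 fell: the receptor genes Tnfrsf1a (1.40 ± 0.12), Il1r1 (1.22 ± 0.17) and Il6ra (0.94 ± 0.12) and the adaptor gene Myd88 (0.94 ± 0.13), with adjusted p = 4.84e-05 to 0.00103. The ligand gene Il1b differed by 0.83 ± 0.26 (adjusted p = 0.0765). Its signals were low, with 44.0 in Nav1.8CreROSA26DTA LPS and 59.3 in wild-type LPS, against 27.5 in Nav1.8CreROSA26DTA PBS and 30.1 in wild-type PBS. Tnf, the ligand gene of Tnfrsf1a, did not pass (−0.04 ± 0.16, adjusted p = 0.914). The ligand genes Il6, Il1a and Tnfsf11 were too dim to be tested. With any 1 array left out, the calls of Pla2g3, Alox5 and Tnfrsf1a remained. The calls of Hpgds (adjusted p = 0.0677 to 0.158) and Pla2g5 (0.0841 to 0.29) ended each time. Those of Pla2g4a, Tbxas1 and Abcc4 ended without 3 of the 4 arrays, with Pla2g4a at 0.46 and Tbxas1 at −0.48 without wild-type PBS. Those of Alox5ap and Ltc4s ended without 2 and those of Il1r1, Il6ra and Myd88 without Nav1.8CreROSA26DTA LPS. Without limma's intensity trend, 8 of the 13 calls ended, those of Pla2g4a, Pla2g5, Tbxas1, Abcc4, Alox5ap, Ltc4s, Il6ra and Myd88 (adjusted p = 0.0519 to 0.194). Without the term for genotype the calls of Pla2g4a, Pla2g5 and Tbxas1 ended (0.0873 to 0.168). With cyclic loess or the mean of a gene's probes the calls of Pla2g4a and Pla2g5 ended (0.0503 to 0.106), and with the value table that of Pla2g5 did (0.0547). Pla2g4a, with 1 probe, kept its value of 0.69 with the mean of probes. The call of Il6ra ended with the dimmest probe (0.109). In that fit Il1b was called (0.0481) at an unchanged value of 0.83. With normexp Il1b stood at 0.17 and was not called (0.664).

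**Figure D4:**
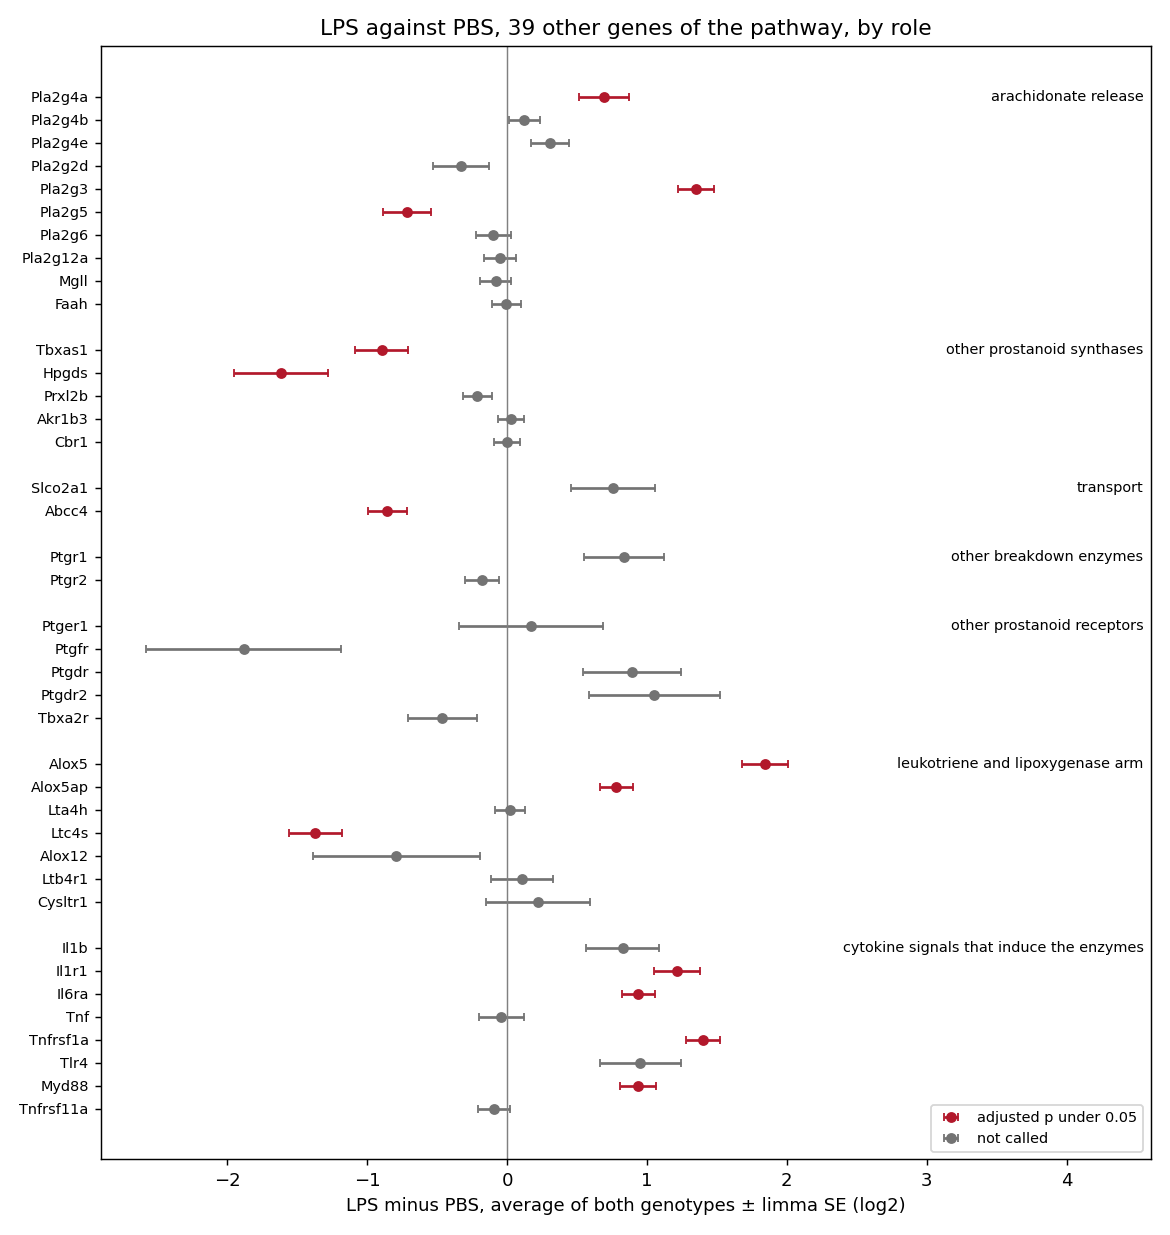
LPS minus PBS (log2, average of both genotypes) for the 39 tested genes around the pathway, by role, with bars for limma's standard error and colour for calls at an adjusted p under 0.05. Called genes lie on both sides of 0 among phospholipases and the leukotriene arm, below 0 among other synthases and transport, and above 0 among cytokine signals.

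The genes whose 4-array profile was nearest to that of Ptgs2, by Euclidean distance between log2 values centred on each gene's mean, were Il4ra (0.05), Adcy4 (0.10), Tnfaip3 (0.12) and Col4a2 (0.13), among 16243 genes well above background on all 4 arrays. Their LPS differences were 1.36 to 1.50. The nearest to Hpgd were Pde6c (0.09), Fzd10os (0.11), Spata3 (0.12) and Serpinb1a (0.15), which were lower with LPS by 0.87 to 1.01 and higher in Nav1.8CreROSA26DTA by 0.48 to 0.62. The median distance of all these genes was 1.47 from Ptgs2 and 1.12 from Hpgd. The nearest genes were picked by the same 4 values that give their differences. Their like differences therefore follow from the choice and are no separate result.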

How the data were processed

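TRIzol was used for RNA and Agilent's low-input kit for the Cy3 label, per the labels' protocols. Feature Extraction is given as 11.0.1.1 by the submitters' processing notes and as 12.0.3.1, with a design grid of mm9, by the file headers. The deposited intensity used here, the processed signal, is background-subtracted and detrended within the array, per the file headers. The value table the authors deposited holds the same intensity times 1 factor per array (1.57 to 2.09), within 0.1% for at least 59304 of 59305 spots. Flags for well above background, saturated and outlier spots are 0 or 1 values, per the file headers.

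Outlier spots (81 to 96 per array) were left out, signals were divided by the array's 75th percentile (508 to 720) and spots of a probe were averaged as log2 values. For printing they were multiplied by the common value 610.3. Probes were named through RefSeq accessions with a GRCm38.p6 gene table, which named 33767 of 56605 probes. A gene was read from the probe with the most arrays well above background and, among ties, from the brightest. Genes well above background on at least 2 arrays entered limma 3.58.1 in R 4.3.3 (lmFit with terms for genotype and agent, eBayes with intensity trend, two-sided). That model leaves 1 residual degree of freedom, pooled with 8.87 prior degrees from other genes, and any true difference of response counts as error. Since a group is 1 array, spread between samples cannot be told apart from such a difference in these p-values. How much of the spread between animals they cover is not known, as the labels do not give the number of mice per array. All arrays lay on 1 slide and 1 scan, with PBS arrays in one row and LPS arrays in the other, so that position and injection cannot be told apart. Over probes printed as 10 spots, the median spot SD was 0.10 (log2) for the 6 probes with signals of 30 to 300 and 0.04 for the 285 brightest. With left-out arrays the model held 1 factor only. The script was tested on simulated data. Alternatives were median, cyclic loess and quantile scaling, normexp with offset 50, the value table, filters on dim probes, the mean of a gene's probes, no trend and no second factor. The fit per probe, the dimmest probe and normexp on the median signal (the files hold no mean signal) were added after seeing the data.

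The members, lists and tests were chosen with earlier results of these data known. Named genes are all 10 members, called genes of the fixed list, some further list genes, fixed cell type markers, and the 4 nearest profiles to Ptgs2 and Hpgd. Promoters are RefSeq's, from the table of GRCm38.p6.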

Additional observations from a re-analysis of the deposited data

Results flagged for a closer look

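Ptgis moved in opposite directions in the genotypes. With LPS it was lower in Nav1.8CreROSA26DTA (−0.41 on the log2 scale) and higher in wild-type (0.59), a difference of responses of −0.999. Read by injection, the same 4 values put Nav1.8CreROSA26DTA below wild-type with LPS (−0.27) and above it with PBS (0.73). Each group holds 1 array, so the difference was not tested. Those values are of Ptgis probe 2. The dimmer probe 1, with signals of 20.4 to 38.1, gave −0.63 in Nav1.8CreROSA26DTA and 0.61 in wild-type. Responses of opposite sign, both at least 0.1 in size, occurred in 10.9% of genes measured on all 4 arrays, and opposite genotype differences in 15.9%.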

How the results depend on the processing

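Ptgs2 was called higher with LPS under all 15 alternatives to the model of genes, at 1.18 (normexp) to 1.48 (deposited value table), with the highest adjusted p, 0.0259, without the intensity trend. Hpgd was called lower under 10 of them and not without the other factor or with an array left out (−1.28 to −0.68). The count of genes called lower was then 0, and likewise 0 to 0 over the arrays left out, where 1 to 1 were called higher. The count called higher was 2 with the mean of all probes of a gene and with 1 row per probe, the added gene being Ptges, and 0 genes were called for genotype under every alternative run. Ptges stood at 0.52 with the mean of probes, 0.70 with the dimmest probe (adjusted p = 0.0507), and 0.96 and 0.70 at probes 1 and 2 with 1 row per probe. Ptgis was −0.0062 with the dimmest probe and at probe 1. Ptger4 was −0.029 with median scaling, −0.014 with quantile normalization and −0.11 with normexp. For genotype, Ptges was −0.0098 with quantile normalization and −0.017 with the value table, where Ptger4 was −0.018. With arrays left out, LPS differences ran from −0.0055 to 0.15 (Ptgs1), −0.49 to 0.031 (Ptgds), −0.27 to 0.46 (Ptgis) and −0.024 to 0.076 (Ptger4), and genotype differences from −0.70 to 0.77 (Ptgs2), −0.060 to 0.10 (Ptges), −0.028 to 0.17 (Ptges2), −0.21 to 0.051 (Ptges3), −0.011 to 0.50 (Ptgds), −0.070 to 0.52 (Ptgis) and −0.037 to 0.071 (Ptger4). Those fits set 2 arrays against 1 with no second factor, and the lone array is assumed to vary like the others. Part of the difference of the factor left out therefore enters these ranges, as that of LPS does in the genotype range of Ptgs2. In pairs of arrays, 0 genes were at least 2-fold lower in Nav1.8CreROSA26DTA with normexp (Hpgd −0.78) or the value table (−0.91), and the difference of responses held 1 gene at least 2-fold lower, Ptgis, with median scaling (−1.04), cyclic loess (−1.02), the mean of probes (−1.12) and the dimmest probe (−1.24). Over all genes, 1000 were called higher and 834 lower with LPS, against 944 and 1223 with median scaling, 974 and 463 with cyclic loess, 1103 and 1405 with normexp, 1043 and 433 with the value table, 1575 and 1560 without the filter, 839 and 545 with the mean of probes, 403 and 55 without the trend and 600 and 281 without the other factor, and 370 to 552 higher and 86 to 232 lower with an array left out. For genotype 96 were called higher and 23 lower, against 153 and 29 with median scaling, 21 and 8 with cyclic loess, 179 and 62 with quantile normalization, 383 and 211 with normexp, 20 and 8 with the value table, 646 and 302 without the filter, 12 and 1 with the mean of probes, 199 and 57 with the dimmest probe, and 0 and 0 without the trend, without the other factor and with any array left out. Causes were not tested. No paired analysis was possible because the labels give 1 array per group and no replicate numbers. Probes at signals near 10 to 30, such as Ptger4 probe 1 and Hpgds, limit what their differences can show.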
